A study of Zea mays with 6 samples.

Results

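The level of 5 SBP-box transcription factor genes of maize (SPL genes) and of 1 AP2 transcription factor gene was followed in leaves of plants that overexpress a sucrose synthase and of their controls. The SPL genes were tga1 (Zm00001d049822), tsh4 (Zm00001d020941), ub2 (Zm00001d031451), ub3 (Zm00001d052890) and lg1 (Zm00001d002005), and the AP2 gene was gl15 (Zm00001d046621). They were taken by identifier from a list headed as SPL and phase-change genes downstream of the miRNA miR156. That heading may not hold for each gene, since the rice counterpart of lg1 is not a target of miR156. The genes make up 6 of the 44351 genes listed for each library. The pairing of identifiers with symbols came with that list. The RefSeq gene table used here, of the assembly Zm-B73-REFERENCE-NAM-5.0, pairs 0 of the 6 identifiers with a symbol, and neither sequences nor coordinates of these genes were used here.

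Transgenic plants (3 libraries) and non-transgenic control plants (3 libraries) were both of the inbred line KN5585, and RNA was taken from leaf. By the title of the series the transgene overexpresses ZmSUS1, a sucrose synthase gene. Its promoter and the number of transformation events were not stated in the labels. The level of ZmSUS1 itself was not analysed here, since no file used pairs it with an identifier. Both groups carry a drought time point, of 3 days in the sample labels and of 5 days in the series text. The treatment label of the controls is normal, so drought is taken as shared by both groups only on the strength of the time point. Had the controls not been under drought, transgene and drought could not be told apart for any gene. The replicates are called biological in the series text, but no label ties them to separate plants, so the spread behind each p-value is that of these libraries and may be technical. In bulk leaf, fewer cells of a type and less RNA per cell cannot be told apart, and the leaf was not checked against marker genes because the identifiers carry no symbols.

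In maize and other plants miR156 is abundant in juvenile shoots and declines with age. It pairs with transcripts of most SPL genes and represses them, so that SPL proteins accumulate in the adult phase, and SPL proteins in turn favour expression of miR172. miR172 represses AP2-type genes, among them gl15, which keeps the leaf epidermis in its juvenile, wax-coated state. The dominant maize mutant Corngrass1 overproduces miR156 from the locus of zma-mir156b and stays juvenile.

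Of the 6 genes, gl15 was the only one with a level above the minimum for testing, and its level was higher in the transgenic leaves. The 5 SPL genes stood at or close to 0 FPKM in both groups (FPKM relates fragments to the length of the gene and to all mapped fragments of the library, so levels of different genes can be compared). The genes of miR156 were lower in the transgenic leaves, which entered the choice of the list, and the 4 rows of miR172 and the 1 row of miR529 were listed at 0 FPKM in all 6 libraries.

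gl15 had 2.97, 3.09 and 3.27 FPKM in the transgenic libraries, against 1.07, 1.31 and 1.22 FPKM in the control libraries. Each transgenic library lay above each control library, as in 16.6% of the genes tested, and the lowest transgenic value was well above the highest control value. The means were 3.11 ± 0.15 FPKM in transgenic and 1.20 ± 0.12 FPKM in control leaves (SD, n = 3 each), a 2.59-fold difference. On the scale of log2(FPKM + 1), on which the added 1 compresses changes of low genes, the difference was 0.90 ± 0.09 (SE), with a 95% interval from 0.70 to 1.11 (limma, Benjamini-Hochberg adjusted p = 1.7e-05 over the 22944 genes that averaged 0.5 FPKM or more). gl15 therefore rose past the threshold, an adjusted p of 0.05.

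Most genes differed between these groups, so the call of gl15 is read against that background. Of the 22944 genes tested, 16.3% were called higher and 67.7% lower in the transgenic leaves, and 84% were called in either direction. The direction of gl15 was the less common one. The median difference over all tested genes was -0.56 on the log2(FPKM + 1) scale, and 6.33% of the tested genes had a larger positive difference than gl15. In the class that holds gl15, 8931 genes averaging from 0.5 to below 5 FPKM, 1291 were called higher (14.5%), 5217 were called lower, and 521 had a larger difference than gl15.

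Scaling the libraries by the median of their gene ratios, which removes the shift shared by most genes, made the difference of gl15 larger. It multiplies all genes of a library by the same factor, so it raised transgenic over control levels for every gene. The scaled levels were 3.75, 3.87 and 4.12 FPKM in transgenic and 0.839, 1.03 and 0.952 FPKM in control libraries, a 4.16-fold difference of the means. The groups stayed apart under this scaling too, but how many other genes did so after scaling was not counted. The log2 difference was then 1.34 ± 0.09 (SE, limma adjusted p = 1.8e-06), where 36.3% of all tested genes were called higher. In the class of 0.5 to below 5 FPKM 27.6% were called higher. Of the tested genes 7.34% had a larger difference than gl15, against 6.33% as deposited, so its place among the genes was not higher.

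**Figure D1:**
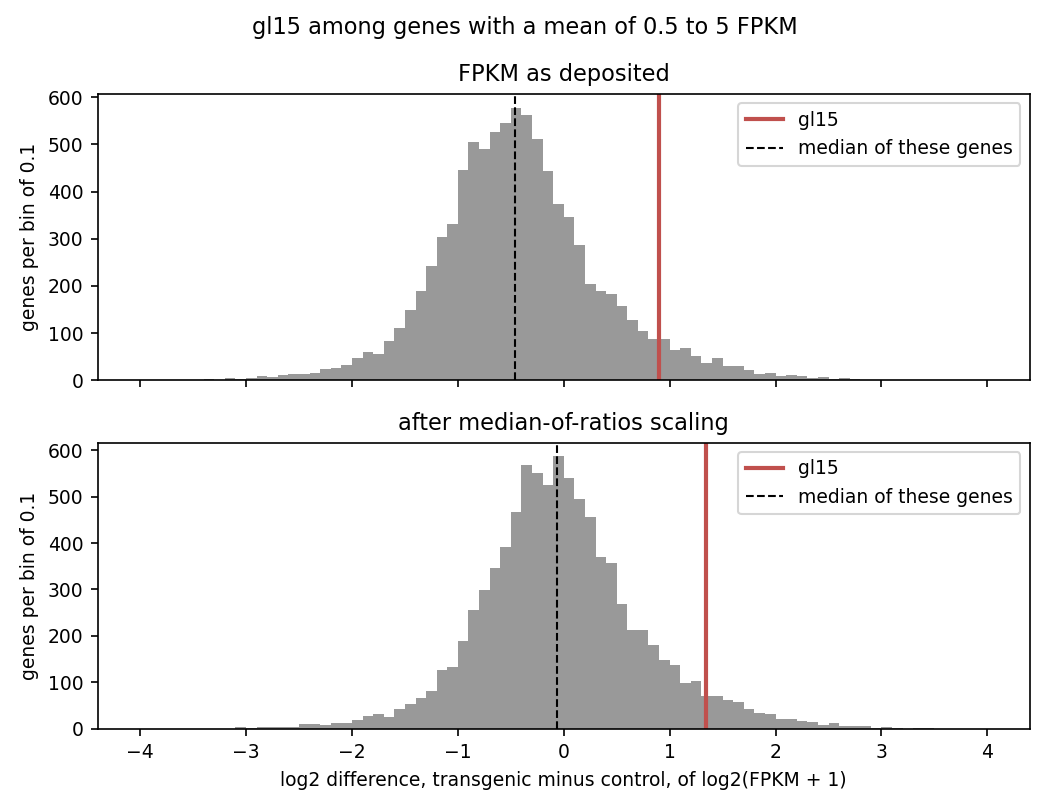
Histograms of the log2 difference, transgenic minus control, of log2(FPKM + 1) for the 8931 genes averaging from 0.5 to below 5 FPKM (x axis, bins of 0.1; y axis, genes per bin), as deposited above and after median-of-ratios scaling below. The solid line marks gl15, at 0.90 as deposited and at 1.34 after scaling, and the dashed line marks the median of these genes, at -0.46 and at -0.06; gl15 lies in the right tail in both panels.

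tsh4 is known for suppressing bract growth and for setting meristem boundaries in the maize inflorescence. It was the SPL gene with the highest control level, and it had 0.04, 0.11 and 0.11 FPKM in the transgenic libraries, against 0.22, 0.26 and 0.37 FPKM in the control libraries. The highest transgenic value was below the lowest control value. The means were 0.087 ± 0.040 FPKM in transgenic and 0.283 ± 0.078 FPKM in control leaves (SD, n = 3 each), so the control mean was 3.27-fold higher (two-sided p = 0.1 in an exact permutation test, the lower limit for 3 against 3 libraries). Among the 10932 genes with a mean above 0 and below 0.5 FPKM, 16.5% had all transgenic values below all control values, so tsh4 shared this pattern with many low genes.

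In a fit without the minimum level, which tested the 33876 genes with a value above 0 in any library, the log2 difference of tsh4 was -0.24 ± 0.06 (SE, limma adjusted p = 0.012). In that fit 49.3% of the genes were called lower. After median-of-ratios scaling, a combination chosen after seeing the data, the difference was -0.14 with a 95% interval from -0.28 to 0.0009 and no longer passed (limma adjusted p = 0.090). In that scaled fit 26.3% of the genes were called lower. The scaled control mean was 2.04-fold higher. The scaled groups did not overlap, at 0.051, 0.138 and 0.139 FPKM in transgenic and 0.173, 0.204 and 0.289 FPKM in control libraries. How many other low genes had groups apart after scaling was not counted, so nothing further is read from this separation.

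tga1, known for controlling the hardened glume that encloses the kernel of teosinte, was the other SPL gene whose groups did not overlap, in the opposite direction. It had 0.07, 0.20 and 0.06 FPKM in the transgenic libraries, and 0, 0.05 and 0 FPKM in the control libraries. The lowest transgenic value, 0.06 FPKM, exceeded the only control value above 0 by the rounding step of 0.01 FPKM (exact permutation test, two-sided p = 0.1). All transgenic values above all control values were seen in 5.88% of the 10932 genes of that low class. In the fit without the minimum level the log2 difference was 0.12, with a 95% interval from -0.02 to 0.27, and did not pass (limma adjusted p = 0.11). After scaling, again a combination chosen after seeing the data, it was 0.16 (limma adjusted p = 0.078).

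ub3 and ub2 are close relatives that affect the number of branches of the tassel and limit the number of kernel rows of the ear. ub3 had 0.03, 0 and 0.03 FPKM in the transgenic libraries, and 0.03, 0.17 and 0.14 FPKM in the control libraries. Control replicate 1 equalled the higher transgenic values, so the groups touched, and the exact permutation test gave a two-sided p of 0.3. Without that library, in the fit without the minimum level, the log2 difference of ub3 was -0.18 (limma adjusted p = 0.013). There 49.1% of the 33260 genes tested were called lower, so such a call was common. With all libraries the difference of ub3 was -0.12 (limma adjusted p = 0.10), so 1 library decides this call. Leaving out any other single library gave limma adjusted p of 0.17 to 0.25. These omissions in the fit without the minimum level were chosen after seeing the data. ub2 had 0, 0 and 0.11 FPKM in the transgenic libraries, and 0, 0 and 0.04 FPKM in the control libraries. Only replicate 3 of each group was above 0 for ub2, and the 95% interval of its log2 difference in the fit without the minimum level ran from -0.10 to 0.16 (limma adjusted p = 0.64).

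lg1 specifies the ligule and auricle at the boundary between leaf blade and sheath, and its counterpart in rice is not a target of miR156. It had 0, 0.04 and 0 FPKM in the transgenic libraries and was listed at 0 FPKM in each control library. It was the lowest of the 6 genes, with a value above 0 in 1 of 6 libraries. Its log2 difference in the fit without the minimum level was 0.02, with a 95% interval from -0.06 to 0.10 (limma adjusted p = 0.66).

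**Figure D2:**
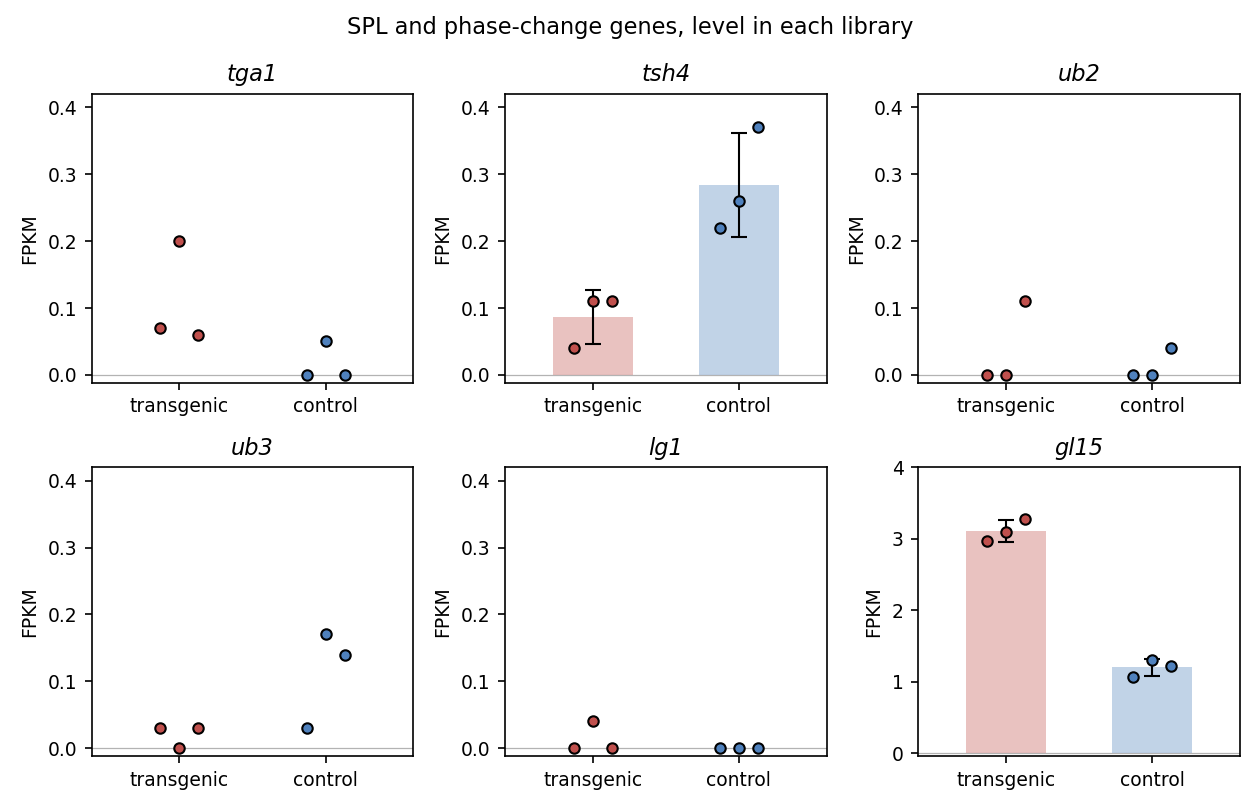
FPKM (y axis) of each of the 6 genes in the 3 transgenic (left) and 3 control (right) libraries, 1 point per library; bars and error bars, drawn only for tsh4 and gl15, which have no value at 0, are the mean and SD. The axis of gl15 reaches 4 FPKM and the other axes 0.42 FPKM; gl15 is higher in all transgenic libraries, and no SPL value exceeds 0.37 FPKM.

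Read together, the 30 values of the 5 SPL genes held 12 at 0 FPKM, 5 of 15 in the transgenic and 7 of 15 in the control libraries, and the highest was 0.37 FPKM. Such levels are common among the listed genes: 10475 genes (23.6%) were at 0 FPKM in all 6 libraries and 21407 (48.3%) had a mean below 0.5 FPKM. Summed over the 5 SPL genes, the level was 0.14, 0.35 and 0.31 FPKM in the transgenic libraries, and 0.25, 0.48 and 0.55 FPKM in the control libraries. The ranges overlapped (exact permutation test, two-sided p = 0.3). Without tsh4, the remaining 4 genes summed to 0.10, 0.24 and 0.20 FPKM in transgenic and 0.03, 0.22 and 0.18 FPKM in control libraries, ranges that overlapped.

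Values are rounded to 0.01 FPKM, so a value of 0.04 FPKM can stand for anything from 0.035 to 0.045 FPKM, and the number of fragments behind the SPL values was not derived. What 1 fragment is worth was compared between the groups from low values. The libraries of a group were taken to share the same step, so differences within a group could not be seen. Low values were taken as whole multiples of a group's lowest value when they lay within 3% of up to 6 times it. Of 20 genes that met this in both groups, with lowest values from 0.3 to 10 FPKM, 12 gave a step ratio, transgenic over control, within 2% of 0.97, and no window of the same width away from it held more than 1 gene.

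The order of levels differed between the groups below gl15. In the transgenic leaves gl15 came first, at 2.97 to 3.27 FPKM, and the ranges of tga1 (0.06 to 0.20 FPKM), tsh4 (0.04 to 0.11 FPKM), ub2 (0 to 0.11 FPKM), ub3 (0 to 0.03 FPKM) and lg1 (0 to 0.04 FPKM) followed, in the order of their means. Of these neighbours only gl15 and tga1 had ranges that did not overlap. In the control leaves gl15 was followed by tsh4, at 0.22 to 0.37 FPKM, and by ub3, at 0.03 to 0.17 FPKM, with no overlap between these ranges, and then by tga1, ub2 and lg1, whose ranges overlapped.

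Shares within the 6 genes do not depend on any scaling between libraries. gl15 made up 95.5%, 89.8% and 91.3% of their summed FPKM in the transgenic libraries, against 81.1%, 73.2% and 68.9% in the control libraries. The mean share was 92.2% ± 2.9 in transgenic and 74.4% ± 6.2 in control leaves (SD, n = 3 each). The share of tsh4 was 1.29%, 3.20% and 3.07% in the transgenic libraries, against 16.7%, 14.5% and 20.9% in the control libraries. For gl15, tsh4 and also ub3 the shares of the groups did not overlap (two-sided p = 0.1 for each in an exact permutation test, the lower limit). ub3 took 0.96%, 0% and 0.84% in the transgenic libraries, against 2.27%, 9.50% and 7.91% in the control libraries. These shares are not independent. The 6 genes summed to a mean of 3.38 FPKM in transgenic and 1.63 FPKM in control leaves, mostly gl15, so a higher gl15 by itself lowers the other shares. The ratio of gl15 to tsh4 was 74.2, 28.1 and 29.7 in transgenic and 4.86, 5.04 and 3.30 in control libraries. Transgenic replicate 1, with the lowest tsh4 value, stood apart in this ratio, and the other transgenic libraries were still above each control library. The ratio was not among the planned results. It restates the opposite differences of gl15 and tsh4, so its separation adds nothing to them.

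**Figure D3:**
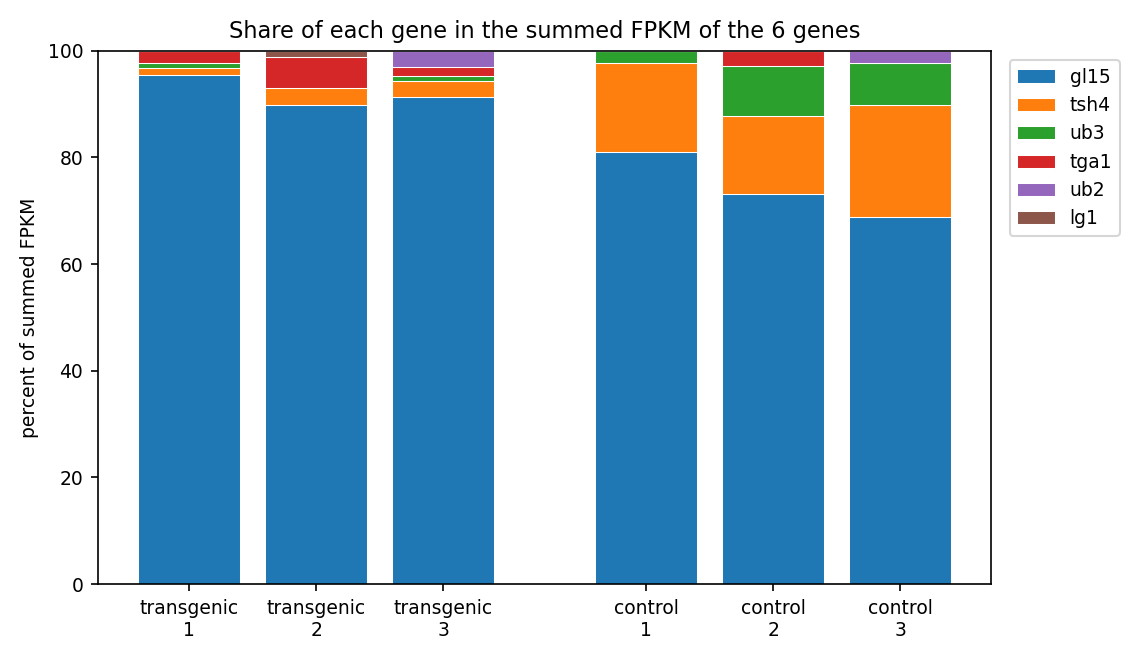
Stacked bars of the percent of the summed FPKM of the 6 genes (y axis) that each gene takes, in the 3 transgenic libraries (left) and the 3 control libraries (right). gl15 takes 89.8% to 95.5% in transgenic and 68.9% to 81.1% in control libraries, and the segment of tsh4 is smaller in each transgenic library.

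The miRNA rows describe the genes of the miRNAs in mRNA libraries, not the mature miRNAs. Summed over the 11 rows of miR156, the level was 69.3, 62.2 and 56.6 FPKM in the transgenic libraries, against 324.9, 326.1 and 310.5 FPKM in the control libraries. Of the 9 rows that passed the minimum level, 8 were called lower as deposited, where 67.7% of all tested genes were, and 5 after median-of-ratios scaling, where 36.9% were; since lower miR156 entered the choice of the list, this is a description. zma-mir156b, of the Corngrass1 locus, and zma-mir156j were listed at 0 FPKM in each library.

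Shares of single rows within the miR156 family are given as a description, with no test. zma-mir156d made up 29.7%, 26.8% and 25.2% of the family's summed FPKM in the transgenic libraries, against 51.7%, 54.4% and 51.2% in the control libraries. zma-mir156k made up 32.5%, 24.2% and 30.6% in the transgenic libraries, against 15.8%, 17.0% and 19.6% in the control libraries. Thus the family was led by zma-mir156d in each control library, while in the transgenic libraries the ranges of zma-mir156d and zma-mir156k overlapped. The shares of zma-mir156e were 17.6%, 15.1% and 15.3% in transgenic and 6.30%, 5.67% and 5.82% in control libraries. For each of these 3 rows the shares of the groups did not overlap. The same held for zma-mir156h, larger in transgenic libraries, and for zma-mir156f and zma-mir156g, smaller there. The shares are not independent, since a lower zma-mir156d by itself raises the others. Mean levels in transgenic and control leaves were 17.2 and 168.2 FPKM for zma-mir156d, 18.3 and 55.95 FPKM for zma-mir156k, and 10.1 and 19.0 FPKM for zma-mir156e. All 3 rows were thus lower in level in transgenic leaves. zma-mir156d, zma-mir156k and zma-mir156e were chosen after their values were seen. Fragments shared by family members cannot be told apart in these levels.

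**Figure D4:**
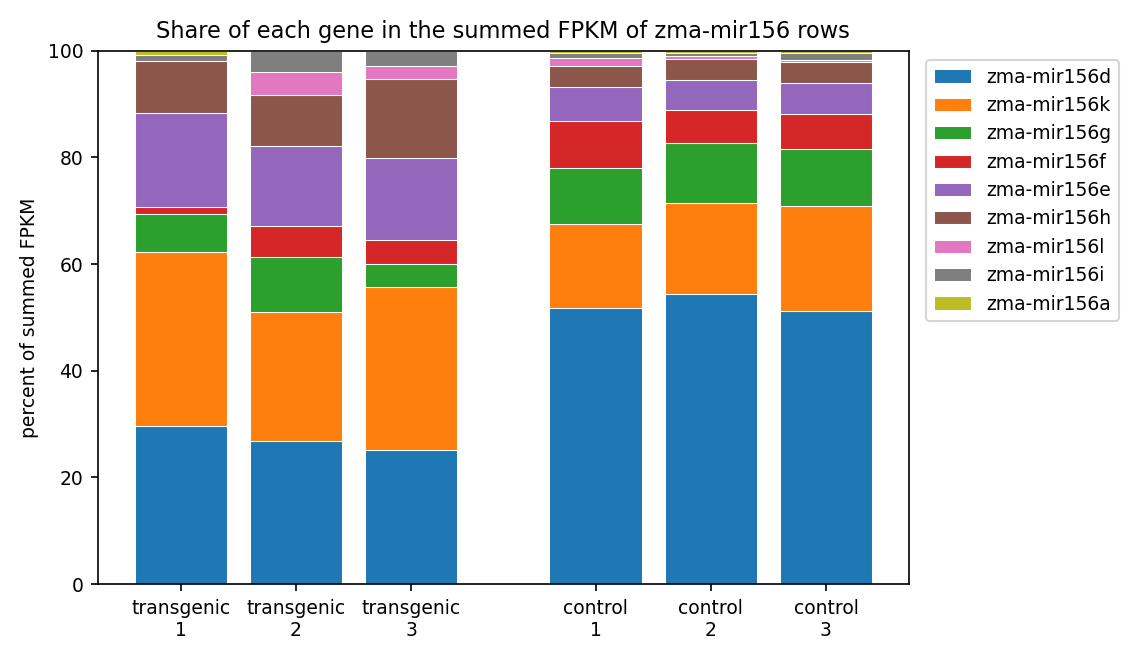
Stacked bars of the percent of the summed FPKM of the miR156 rows (y axis) taken by each of the 9 rows with a value above 0, in the 3 transgenic libraries (left) and the 3 control libraries (right). zma-mir156d takes 25.2% to 29.7% in transgenic and 51.2% to 54.4% in control libraries, and zma-mir156k and zma-mir156e take larger shares in the transgenic libraries.

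miR172 and miR529 bear on the same genes. The rows zma-mir172b, zma-mir172c, zma-mir172d and zma-mir172e, whose mature products repress gl15 and other AP2 genes, were listed at 0 FPKM in each library, and so was zma-mir529, whose product resembles miR156 in sequence and pairs with SPL transcripts in grasses. Without a value above 0, these 5 rows gave no comparison between the groups.

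Among the 36 miRNA rows that passed the minimum level, the only tested rows with names of their own in the files, zma-mir166d followed gl15 most closely over the 6 libraries (Pearson's r = 0.99 on the log2(FPKM + 1) scale). It was listed at 4.03, 7.09 and 6.07 FPKM in the transgenic libraries and at 0 FPKM in each control library. For tsh4 the closest row was zma-mir168b (r = 0.97), with 4.76, 5.85 and 6.75 FPKM in transgenic and 16.7, 15.9 and 23.4 FPKM in control libraries. These 6 points fall into the 2 groups and share their libraries, so r mostly restates the difference between the groups. For the other 4 genes, whose values are near 0, the closest rows were zma-mir159f for tga1 (r = 0.82), zma-mir397b for ub2 (r = 0.93), zma-mir156k for ub3 (r = 0.78) and zma-mir167e for lg1 (r = 0.74). The values of these 4 genes reach at most 0.20 FPKM, and nothing is read from these correlations.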

How the data were processed

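RNA was sequenced from leaves in 3 transgenic and 3 control libraries. Per the file headers, the authors deposited FPKM per gene, 1 table for each library, which hold 2 decimals. DESeq2 (no version or role) and the mouse build mm10 are named per the submitters' processing notes. For aligner, counter and maize build, nothing is given in the sources used here. Absolute depth was not derived. Total FPKM was 829541 to 831082 in transgenic and 684047 to 689548 in control libraries.

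log2(FPKM + 1) of every gene averaging 0.5 FPKM or more was fitted in limma 3.58.1 (R 4.3.3), transgenic against control, without covariates and with an intensity trend. Tests were two-sided, and p-values were adjusted over all tested genes by the Benjamini-Hochberg method. The fit was tested on simulated data in which few genes changed, in both directions and without a shared shift. These data differ from that setting, so the simulation does not bear on the calls made here. Group means of the levels of single genes, of sums and of shares were compared by exact permutation of the libraries (scipy 1.17.1). Alternatives were a pseudocount of 0.1, no minimum, a minimum of 2 FPKM, 3 scalings, no trend, a replicate block and the omission of each library. Named genes were the 6 members, all rows of miR156, miR172 and miR529, and for each member the named row with the highest r. The members and lists were chosen with earlier results of these data known.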

Additional observations from a re-analysis of the deposited data

How the results depend on the processing

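The difference of gl15 kept its direction and stayed past the threshold under each of the alternatives run, from 0.72 with the same total FPKM to 1.39 with quantile normalisation, and from 0.86 to 0.94 when single libraries were left out. With the replicate block it was 0.90 (limma adjusted p = 0.00016). Replicate numbers did not pair libraries across the groups: deviations of same-numbered libraries correlated at 0.002, -0.05 and 0.002, and 2 of 6 libraries correlated best with their own number; the block moved the calls over all genes from 19278 to 19187. Members called, 1 in the main test, were 2 without the filter, where tsh4 made 1 lower call, because more genes are then tested. With a pseudocount of 0.1 the untested log2 differences were 0.81 for tga1, 0.16 for lg1, -1.04 for tsh4, 0.19 for ub2 and -0.77 for ub3; that of tsh4, -0.24, was -0.14 with median-of-ratios scaling. Lower calls of miR156 rows, 8, were 5 under both median-of-ratios and quantile scaling, and 7 or 8 when single libraries were left out. The row that lost its call was then zma-mir156i, in 4 of the 6 omissions: those of control replicates 1 and 3 and of transgenic replicates 1 and 3. The median difference of all tested genes, -0.56, was -0.015 under median-of-ratios scaling, -0.044 under quantile normalisation, -0.78 with libraries scaled to equal totals, -0.69 with the pseudocount of 0.1, -0.26 without the filter and -0.61 when the filter was set at 2 FPKM. The difference in the share of gl15 ranged from 15.1 to 21.2 percentage points, and that of tsh4 from -16.3 to -13.1, when single libraries were left out. The SPL values, 0 to 0.37 FPKM, are rounded to 0.01 and the fragments behind them were not derived; in the fit without the filter tga1, lg1, ub2 and ub3 did not pass with all libraries, and the part of depth in this was not tested.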
